A study of Mus musculus with 6 samples.

Results

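Phospholamban and 3 genes of calcium storage and calcium pumping were followed probe by probe in cultured mouse airway smooth muscle cells. The genes are Pln, Casq2, Atp2a2 and Atp2b4, 4 of 5755 named genes, measured by all 7 probes that the platform annotation assigns to these symbols, of 8734 probes in the table. Pln has 4 probes, annotated to the same RefSeq transcript, and the other genes have 1 probe each. All 7 probes had a value on all 6 arrays, and none lay at the floor of the deposited scale. These genes were chosen with their transgenic ratios already known, so those ratios are given as a description with no test.

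The cells grew out of tracheal explants, either from transgenic mice with an overexpressed beta2-adrenergic receptor (2AR-OE or TG in the labels) or from nontransgenic mice (NTG). Both kinds of culture were started in medium with 20% serum, RNA was taken between passages 8 and 10, and over 90% of such cells stained for smooth muscle actin, per the labels. The labels do not give the promoter that drives the transgene, the mouse strain or the age of the animals. Each of the 6 arrays set transgenic RNA against nontransgenic RNA in 2 colours, with transgenic RNA labelled by Cy5 on 4 arrays (1A, 1B, 2A, 2B) and by Cy3 on the swapped arrays 1C and 2C. The number in an array's name is called its set; the labels do not say what it stands for, or that arrays of a set came from separate cultures, so the spread between arrays may be technical.

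Values are log2 ratios, likely transgenic over nontransgenic: channel 1 is Cy5 and holds transgenic RNA on 4 of 6 arrays, while the titles of the same arrays put NTG before TG. If the ratio is the reverse, every sign below turns. The columns of the 2 swapped arrays were read as turned to the common direction, which the labels do not state; a value printed below for each member shows what the other reading gives. Over all probes, arrays of the majority orientation correlated with r from 0.357 to 0.697, the 2 swapped arrays with r = 0.313, and arrays of opposite orientation with r from 0.009 to 0.179. Array 1C was the most scattered, with an SD of 1.04 over its probes against 0.467 to 0.608 on the other 5 arrays. Between 8495 and 8555 probes had a value on each array.

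Calcium ions in smooth muscle are held in the sarcoplasmic reticulum, released to start contraction and pumped back to end it. The pump of the reticulum is SERCA2, encoded by Atp2a2, and the small membrane protein phospholamban slows it until protein kinase A, the kinase that cyclic AMP activates downstream of the beta2-adrenergic receptor, phosphorylates phospholamban. Calsequestrin 2, encoded by Casq2, binds calcium inside the reticulum, and PMCA4, encoded by Atp2b4, moves calcium out of the cell across the plasma membrane.

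The upstream sequences of Pln and Casq2 are shown because Casq2 and 1 of the 4 Pln probes hold the lowest ratios of the group. Promoter windows of 300 bases were taken from RefSeq (GRCm38.p6) and held 3 of the 4 genes: Pln, Casq2 and Atp2b4; Atp2a2 was not matched. The 250 bases before the annotated start are printed 5′ to 3′ on the plus strand, at chr10:53337436-53337685 for Pln and chr3:102086165-102086414 for Casq2. Capitals mark a TATAAA match in Pln and a match to the MEF2 site, the binding site of a muscle transcription factor family, in Casq2.
Pln: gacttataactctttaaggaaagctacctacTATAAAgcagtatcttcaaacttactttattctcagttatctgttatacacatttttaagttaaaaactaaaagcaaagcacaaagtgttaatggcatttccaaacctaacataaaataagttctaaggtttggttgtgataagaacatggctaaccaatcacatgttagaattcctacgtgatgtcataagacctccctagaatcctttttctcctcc
Casq2: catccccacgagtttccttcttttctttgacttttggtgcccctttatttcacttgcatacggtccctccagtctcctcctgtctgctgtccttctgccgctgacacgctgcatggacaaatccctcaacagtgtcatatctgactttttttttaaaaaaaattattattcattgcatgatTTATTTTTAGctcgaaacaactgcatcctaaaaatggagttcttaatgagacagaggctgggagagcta

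The Casq2 match to the MEF2 site begins 69 bases before the start and reads as a match on both strands. Of 32851 windows, 3.19% hold such a match on either strand. The TATAAA match of Pln begins 219 bases before the start, and 13.6% of windows hold one. The letters TGACG, the core of the cyclic AMP response element, do not occur on either strand in the windows of Pln and Casq2 and occur in 20.8% of all windows; the Atp2b4 window holds them once, after the start. The full element TGACGTCA occurs in 1.79% of windows and in none of the 3. No window of the 3 holds a CArG box, the core of the serum response element and a motif of smooth muscle genes, which 1.63% of windows hold. The letters CATTCC occur once in the Atp2b4 window and in 14.7% of all windows. The upstream bases are 67.2% A or T in Pln, 58.4% in Casq2 and 54.4% in Atp2b4, against a median of 47.6% over all windows. A match is a description of letters and not a bound site.

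The lowest ratios stood at Casq2 and at 1 of the 4 Pln probes, while the pump genes moved little and in opposite directions. Fitted with limma, Pln probe 807862 was at -1.26 ± 0.09 (SE, n = 6 arrays, 2.39-fold lower) and Casq2 at -1.0 ± 0.09 (1.99-fold lower). Atp2a2 was at 0.34 ± 0.07 (1.27-fold higher) and Atp2b4 at -0.39 ± 0.08 (1.31-fold lower). The remaining Pln probes were at -0.24 ± 0.31, 0.26 ± 0.20 and -0.06 ± 0.08.

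**Figure D1:**
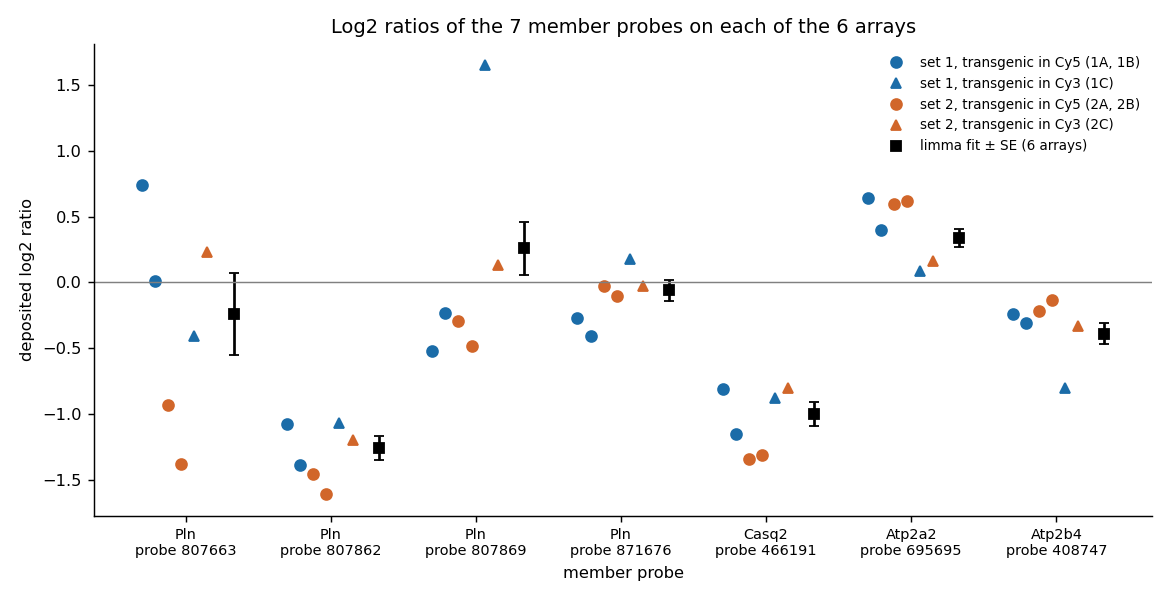
Deposited log2 ratio (vertical axis) of each of the 7 member probes (horizontal axis) on 6 arrays; colour gives the set, circles and triangles the dye orientation, and black squares the limma fit ± SE. Pln probe 807862 and Casq2 lie at -0.80 or lower on every array, Atp2a2 lies above 0 on every array, and Pln probe 807869 has its highest point on array 1C.

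Phospholamban gave a different picture at each of its probes. Probe 807862 read -1.08, -1.39 and -1.07 on arrays 1A, 1B and 1C and -1.46, -1.61 and -1.20 on arrays 2A, 2B and 2C. It was the lowest of the 4 Pln probes on each of the 6 arrays. The gap to the next lowest Pln probe ran from 0.23 on array 2B to 1.17 on array 2C.

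Pln probe 807663 read 0.74, 0.01 and -0.41 on arrays 1A, 1B and 1C and -0.93, -1.38 and 0.23 on arrays 2A, 2B and 2C. Arrays 2A and 2B were lowest, and the other 4 arrays lay on both sides of 0. Its SD over the arrays was 0.78, wider than 90.0% of the 8430 probes with 6 values.

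Pln probe 807869 read -0.52, -0.23, -0.29 and -0.48 on the unswapped arrays (1A, 1B, 2A, 2B), and 1.65 and 0.13 on the swapped arrays 1C and 2C. All 4 arrays of the majority orientation were below 0 and both swapped arrays above it, a split of signs that 10.0% of probes with 6 values show. Its fitted value of 0.26 rests on array 1C; without that array it was -0.12, and without array 2C it was 0.64. Its SD of 0.82 was wider than that of 91.2% of probes.

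Pln probe 871676 read -0.27, -0.41, -0.03 and -0.10 on the unswapped arrays (1A, 1B, 2A, 2B), and 0.18 and -0.03 on arrays 1C and 2C. It lay closest to 0 of the 4 probes, at rank 3397 from the lowest of 8500 fitted probe rows. The fitted mean of the 4 Pln probes was -0.33 ± 0.10, with -0.28, -0.50, -0.68 and -0.89 on the unswapped arrays (1A, 1B, 2A, 2B) and 0.09 and -0.22 on arrays 1C and 2C. With the median of the probes in place of their mean it was -0.30. Probe 807862 lay far below this mean and the other 3 probes lay above it.

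Disagreement of this size is uncommon on this array. The fitted values of the 4 Pln probes spanned 1.51. Of 37 genes with 4 probes in the fit, Pln had the widest span, followed by Mbtd1 at 1.20, and the median was 0.425. Among 1356 genes with at least 2 probes, 15 had a wider span than Pln, and the median was 0.246. The upper end of the Pln span, probe 807869, rests on array 1C. Without that array the 4 probes were at -1.29 (807862), -0.12 (807869), -0.12 (871676) and -0.08 (807663), and that span was not ranked. Pln was chosen with these ratios known, so its rank is only a description. What part of the transcript each probe covers is not given in the annotation used here, and whether the probes measure different RNAs was not tested.

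**Figure D2:**
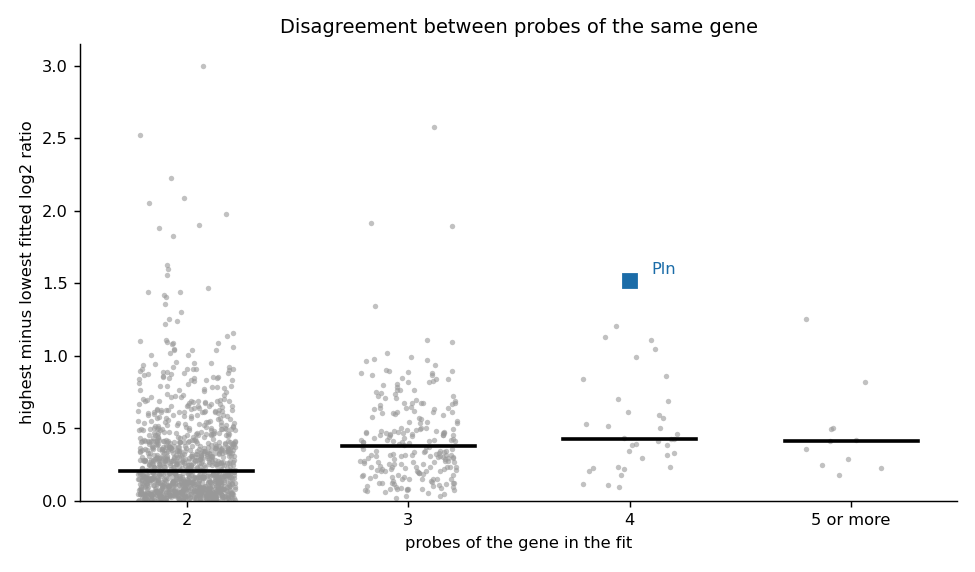
Highest minus lowest fitted log2 ratio among the probes of a gene (vertical axis) against the number of its probes (horizontal axis); each grey point is a gene, the black bars are medians and the blue square is Pln. Pln, at 1.51, is the highest point among the genes with 4 probes.

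Casq2, the calcium-storing protein of the reticulum, read -0.81, -1.15 and -0.88 on arrays 1A, 1B and 1C and -1.34, -1.31 and -0.80 on arrays 2A, 2B and 2C. It was below 0 on all 6 arrays in both sets and both orientations. Its mean was -0.95 ± 0.18 (SD, n = 3) in set 1 and -1.15 ± 0.30 (SD, n = 3) in set 2. With each array left out in turn the fit stayed between -1.05 and -0.96. Its fitted value ranked 86th from the lowest of 8500 probe rows, and Pln probe 807862 ranked 57th.

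Atp2a2, the pump that refills the reticulum, read 0.64, 0.40, 0.60 and 0.62 on the unswapped arrays (1A, 1B, 2A, 2B) and 0.09 and 0.16 on the swapped arrays 1C and 2C. All 6 values were above 0, with a mean of 0.56 with transgenic RNA in Cy5 and 0.13 with it in Cy3. The fit with a dye term gave 0.34, and a fit without it 0.42. Of all probe rows 24.1% had a larger fitted size, so the difference is not large for this array.

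Atp2b4, the plasma membrane pump, read -0.24, -0.31, -0.22 and -0.13 on the unswapped arrays (1A, 1B, 2A, 2B) and -0.80 and -0.33 on arrays 1C and 2C. All 6 values were below 0, with a mean of -0.23 with transgenic RNA in Cy5 and -0.56 with it in Cy3. Array 1C held the lowest value; without it the fit was -0.28, and without array 2C it was -0.51. Of all probe rows 19.9% had a larger fitted size.

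In the order of fitted values, Pln probe 807862 and Casq2 were lowest and their arrays overlapped in range, from -1.61 to -1.07 and from -1.34 to -0.80. Atp2b4 followed, its range meeting that of Casq2 at -0.80. Pln probes 807663, 871676 and 807869 came next with ranges that overlapped one another and that of Atp2b4. Atp2a2 was highest, and its range of 0.09 to 0.64 still overlapped those of these 3 Pln probes.

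**Figure D3:**
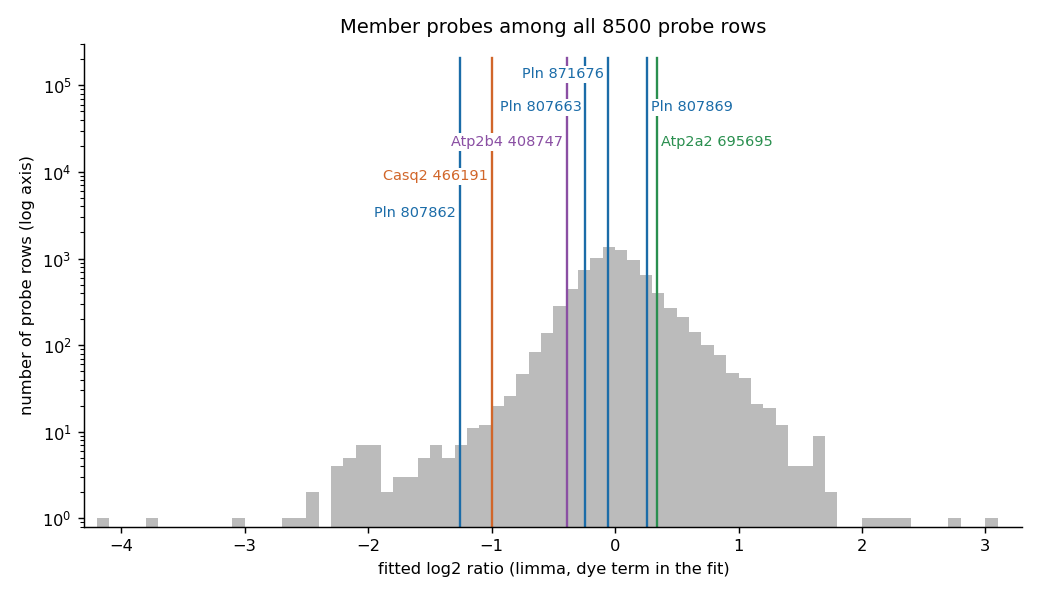
Number of probe rows (vertical, log axis) by fitted log2 ratio (horizontal axis) for all 8500 rows in the fit, in grey, with a line at the fitted value of each member probe. Pln probe 807862 and Casq2 stand in the lower tail, at -1.26 and -1.0, and the other 5 lines stand in the body of the distribution.

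Of the 7 member probes, 4 passed an adjusted p under 0.05 in the fit over all probe rows, 3 lower and 1 higher, against 7.11% of all 8500 rows (3.13% lower and 3.98% higher). Nothing is read from this count, because the genes were chosen on this comparison. Only Pln probe 807862 and Casq2 passed when the set was a random replicate block, a fit in which 177 of 8500 rows passed. The same 2 probes passed without array 1A, 1B, 2A or 2B, where fewer rows passed than in the main fit. Leaving out array 1C or 2C leaves 1 swapped array, so no count of members is given for those fits. Of the 7 probes, 4 had the same sign on all 6 arrays, as did 19.2% of the 8430 probes with 6 values.

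The dye orientation and the set were not used to choose the genes and could be tested. The dye term is added to the ratio where transgenic RNA carried Cy5 and subtracted where it carried Cy3. Limma passed 0 of the 7 members for dye and 0.0% of all 8500 rows, with 18.2% of rows and 2 members at an unadjusted p under 0.05. Those 2 were Pln probe 807869 at -0.63 ± 0.20 (unadjusted p = 0.02, adjusted p = 0.21) and Atp2a2 at 0.22 ± 0.07 (unadjusted p = 0.0175, adjusted p = 0.206). Pln probe 807869 passed limma's test without array 2C, at -1.01 and an adjusted p of 0.00334, and was at -0.25 (adjusted p = 0.378) without array 1C, so 1 array decides its value and its call. The dye term was -0.16 ± 0.09 for Casq2 (adjusted p = 0.4), -0.13 ± 0.09 for Pln probe 807862 (adjusted p = 0.467) and 0.17 ± 0.08 for Atp2b4 (adjusted p = 0.333), which was 0.05 without array 1C and 0.29 without array 2C. For Pln probes 807663 and 871676 it was -0.15 ± 0.31 (adjusted p = 0.808) and -0.14 ± 0.08 (adjusted p = 0.39). The first of these ran from -0.34 to 0.02 with 1 array left out, and the second was -0.09 without array 1C.

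These dye terms are also the transgenic ratios that would hold if the swapped columns had not been turned. On that reading Casq2 would be at -0.16 and Pln probe 807862 at -0.13, Atp2b4 would be above 0 at 0.17, and Pln probe 807869 would be below 0 and furthest from it, at -0.63. For Casq2 and Pln probe 807862 the dye term is small beside the common part of the ratio, which all 6 arrays share in sign. For Atp2a2 and Atp2b4 the dye term reaches a large part of the fitted ratio.

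The 2 sets gave ratios of the same sign for Pln probes 807862 and 871676, Casq2, Atp2a2 and Atp2b4. Limma passed 0 of the 7 members for set 2 minus set 1, and 0.0118% of 8500 rows; at an unadjusted p under 0.05 it was 24.5% of rows and 0 members. The difference was -0.24 ± 0.12 for Pln probe 807862 (adjusted p = 0.31), with means of -1.18 in set 1 and -1.42 in set 2. It was -0.21 ± 0.15 for Casq2 (adjusted p = 0.454), 0.08 ± 0.10 for Atp2a2 (adjusted p = 0.642) and 0.22 ± 0.11 for Atp2b4 (adjusted p = 0.312). For Pln probe 871676 it was 0.11 ± 0.14 (adjusted p = 0.645). For Pln probe 807869 it was -0.51 ± 0.35 (adjusted p = 0.427), and -0.01 without array 1C or 2C. The widest difference was that of Pln probe 807663, with means of 0.11 in set 1 and -0.70 in set 2, at -0.81 ± 0.54 (adjusted p = 0.412). That difference was -1.53 without array 1C (adjusted p = 0.084) or array 2C (adjusted p = 0.0826), -0.39 without array 1A and -0.47 without array 2B. Single arrays also moved the others: without array 1A the difference was -0.14 for Pln probe 807862, -0.07 for Casq2 and 0.15 for Atp2a2, and without array 1B it was 0.01 for Atp2a2. Without array 1C or 2C it was -0.35 for Casq2 and 0.10 for Atp2b4. With the arrays scaled to equal spread it was -0.72 for Pln probe 807862 (adjusted p = 0.0691), -0.59 for Casq2 (adjusted p = 0.0668), 0.20 for Atp2a2 and 0.07 for Atp2b4, none of them past the threshold. The standard errors are large beside most of these differences, and 6 arrays leave unequal ratios between the sets possible.

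Genes whose 6 values lay nearest to those of each member were found by the root mean square difference in log2 ratio over the 6 arrays, among 5610 other genes. Nearest to Casq2 was Hax1, encoding a protein known to bind phospholamban, at 0.20, followed by Tgfb2, a growth factor, at 0.273 and Col5a1, a fibrillar collagen, at 0.278. Nearest to Pln probe 807862 were Ccnd1, a cyclin, at 0.272, Col3a1, a fibrillar collagen, at 0.305 and Tm4sf1, a membrane protein, at 0.322. The median gene lay 1.12 from Casq2 and 1.35 from this Pln probe, and 1 gene and 0 genes, respectively, lay within 0.2.

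Both pump genes, whose fitted ratios were smaller in size, had more close neighbours. Such counts depend on the size of a member's ratios, because the median size over all gene rows was 0.173. They are not read as a trait of the pump genes. Atp2a2 was nearest to Cap2, which encodes an actin-regulating protein, at 0.0644, to Zbtb44 at 0.0977 and to Pcnx3 at 0.11, with 63 genes within 0.2. Atp2b4 was nearest to Adamts4, a matrix protease, at 0.0678, Kctd15 at 0.0724 and Zc3h7a at 0.076, with 146 genes within 0.2. Pln probe 807869 was nearest to Mplkip, Timm44 and Galnt17, at 0.149 to 0.177, all of which had their highest value between 1.54 and 1.81. Pln probe 807663 had no gene within 0.2, with Slc2a6, Abhd16a and Lmo2 nearest at 0.377 to 0.405. Pln probe 871676 had 314 genes within 0.2, with Zcchc12, Klk8 and Minar2 nearest at 0.0221 to 0.066. The mean of the Pln probes was nearest to Pcolce2, Aprt and Fermt2, at 0.139 to 0.155.

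Genes with other roles in calcium handling mostly did not pass the test. Of 112 genes in 8 lists, 50 were measured, and 3 rose and 2 fell by limma over 6807 gene rows at an adjusted p under 0.05. That is 10.0% against 7.11% of all gene rows (4.03% higher and 3.09% lower). The median fitted ratio was -0.007 for the 50 genes and 0.002 for all rows. The lists leave out the 4 member genes.

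Among 5 measured reticulum pumps and pump regulators, Hax1 fell by 0.84 ± 0.11 (adjusted p = 0.0136, below 0 on 6 of 6 arrays) and 0 rose. Its call was lost without array 1C, at -0.85 and an adjusted p of 0.0654. Sln, encoding sarcolipin, a relative of phospholamban in its action on the pump, was at -0.09 ± 0.18. Atp2a1, the pump of fast skeletal muscle, was at 0.19 ± 0.18, and Mrln, encoding a small pump inhibitor, at 0.36 ± 0.47 with values from -0.64 to 2.25. The list's median was 0.01.

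Of 5 measured calcium-binding proteins of the reticulum, 0 passed, 4 had ratios below 0 and the median was -0.19. Hrc, the histidine-rich calcium-binding protein of the reticulum, was furthest from 0 at -0.41 ± 0.13 (adjusted p = 0.114, lower on 6 of 6 arrays). Calr, the storage protein calreticulin, was at -0.19 ± 0.06 (adjusted p = 0.0964), also lower on 6 of 6 arrays.

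Of 6 measured release channels and partners, Jph2, the junctophilin that ties the reticulum to the cell surface, rose (0.49 ± 0.07, adjusted p = 0.0187, higher on 6 of 6 arrays). Its call was lost without array 1A, 1B, 2A or 2B, at ratios of 0.50, 0.51, 0.46 and 0.47 and adjusted p from 0.0508 to 0.0715. The inositol trisphosphate receptors Itpr2 and Itpr3 were at 0.29 ± 0.18 and -0.08 ± 0.06, and the ryanodine receptor Ryr1 at 0.11 ± 0.09. The 2 Ryr1 probes lay on opposite sides of 0, at -0.13 and 0.36. The list's median was 0.07.

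Of 4 measured plasma membrane pumps and exchangers 0 passed, with a median of -0.03. Atp2b1, the relative of Atp2b4 known as PMCA1, was at -0.60 ± 0.23 (adjusted p = 0.165) with values from -1.66 to -0.06, below 0 on 6 of 6 arrays as Atp2b4 was. Of its 2 probes only 1 met the filter of the probe fit, at -0.41 (limma, adjusted p = 0.121). The other probe entered the average only on arrays where it had a value. Slc8a1, the sodium-calcium exchanger, was at 0.35 ± 0.10 (adjusted p = 0.0888).

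Of 9 measured genes of calcium entry, Cacng1, a subunit of the muscle calcium channel, rose (0.54 ± 0.07, adjusted p = 0.0117, higher on 6 of 6 arrays), and the median was -0.04. Its call was lost without array 2A, at 0.53 and an adjusted p of 0.051, and without the dye term, at 0.46 and 0.0565. On the 4 unswapped arrays alone it was 0.29. Stim1, the store sensor, was at -0.10 ± 0.09, and the store-operated channel subunits Orai2 and Orai3 at -0.34 ± 0.17 and 0.45 ± 0.13.

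Of 10 measured kinase and phosphatase genes that act on phospholamban, Prkar2a fell by 0.50 ± 0.10 (adjusted p = 0.04, below 0 on 6 of 6 arrays), and the median was 0.06. It encodes a subunit that holds protein kinase A inactive until cyclic AMP binds. Its call was lost without array 1A, 1B, 2A, 2B or 1C, at ratios of -0.51, -0.50, -0.50, -0.50 and -0.34 and adjusted p from 0.0762 to 0.117. It was also lost with the replicate block (adjusted p = 0.127) and without the dye term (0.0801). The catalytic subunits Prkaca and Prkacb were at -0.03 ± 0.08 and -0.21 ± 0.08, with the 2 Prkacb probes at -0.39 (adjusted p = 0.0317) and -0.03 (adjusted p = 0.889). The calcium-dependent kinase Camk2g was at 0.14 ± 0.09 and the phosphatase subunit Ppp1cb at 0.40 ± 0.11 (adjusted p = 0.088).

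Of 8 measured calcium sensors, Rcan2, a regulator of the phosphatase calcineurin, rose (0.80 ± 0.07, adjusted p = 0.00411, higher on 6 of 6 arrays) and kept its call with each array left out, at 0.77 to 0.83. Its relative Rcan1 was at -0.02 ± 0.07 and the calcineurin subunit Ppp3ca at -0.29 ± 0.08 (adjusted p = 0.0865), of whose 3 probes 1 passed in the probe fit (-0.44, adjusted p = 0.0177). The list's median was -0.02. Of 3 genes of mitochondrial calcium uptake 0 passed, and Micu2 was furthest from 0 at 0.35 ± 0.17 (adjusted p = 0.242). The 2 Micu2 probes were at 0.04 and 0.67.

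**Figure D4:**
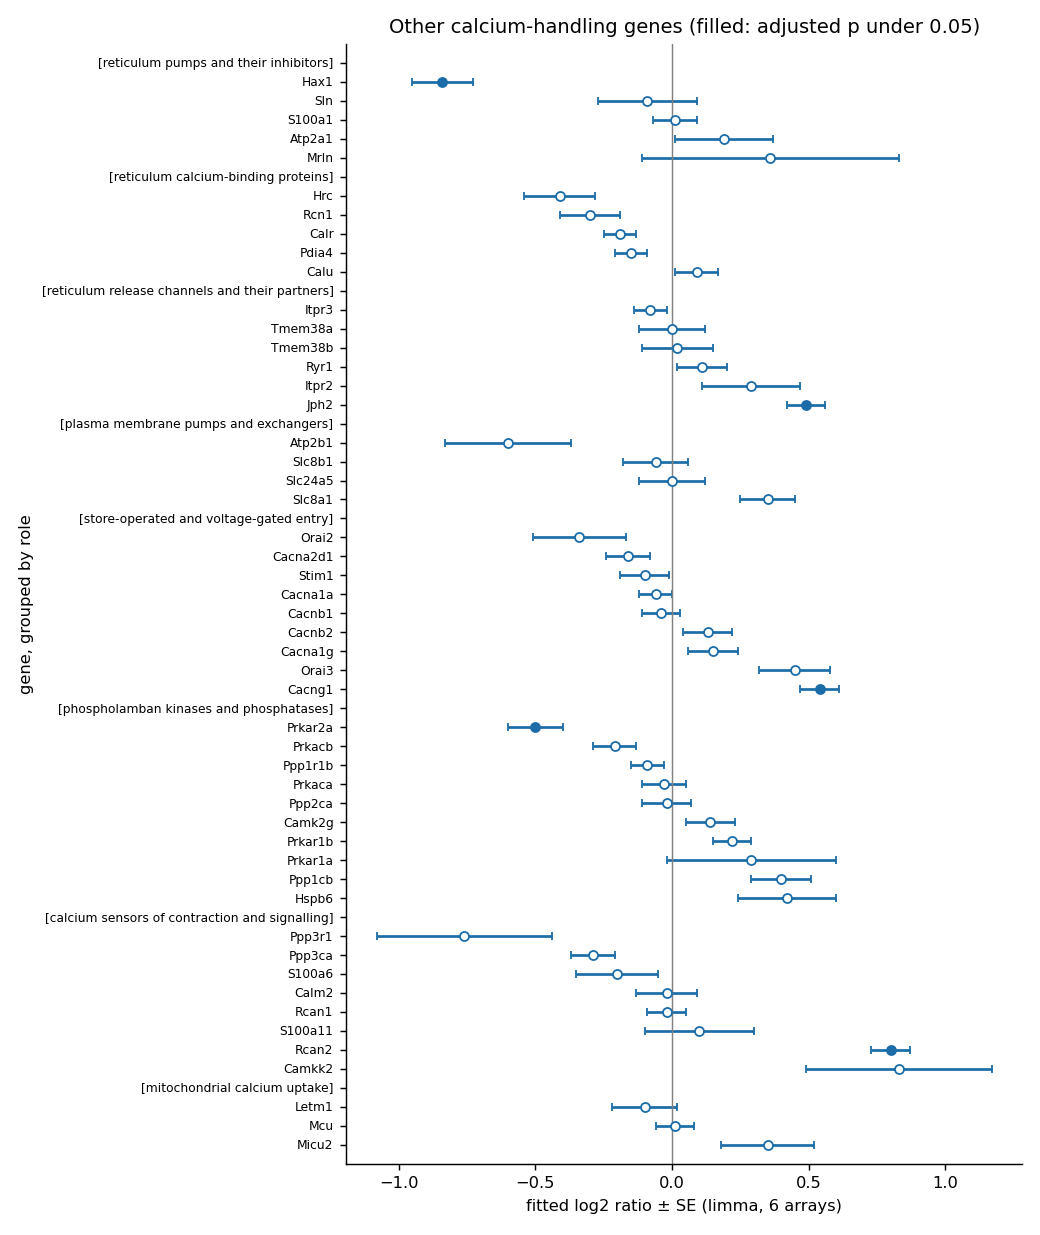
Fitted log2 ratio ± SE over 6 arrays (horizontal axis) for the 50 measured genes of the 8 calcium lists, grouped by role (vertical axis); filled points have an adjusted p under 0.05. Hax1 and Prkar2a are the filled points below 0, and Jph2, Cacng1 and Rcan2 those above 0.

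Pln and Casq2 are known chiefly from heart and slow skeletal muscle, so markers of other cells are given beside the members. Two-colour ratios hold no level, so whether a marker is present or absent cannot be read from them. Of 30 cardiac and skeletal muscle markers 9 were measured; Mb, encoding myoglobin, rose (0.29 ± 0.06, adjusted p = 0.046) and Nppb, a natriuretic peptide, fell by 0.31 ± 0.06 (adjusted p = 0.0421). The median of this list was 0.07, from -0.09 on arrays 1C and 2C to 0.22 on array 2A. Mb and Nppb lost their calls without array 1A, 1B, 2A, 2B or 1C, at 0.28 to 0.31 and -0.36 to -0.30, and with the replicate block (adjusted p = 0.122 and 0.109).

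Only 2 of 13 smooth muscle markers were measured: Cnn1, calponin 1, at 0.59 ± 0.10 (adjusted p = 0.028) and Smtn, smoothelin, at -0.05 ± 0.08. Cnn1 lost its call without array 1A, 1B, 2A, 2B or 1C, at 0.46 to 0.63, and with the replicate block (adjusted p = 0.0602). Of 8 measured fibroblast markers Thy1 (2.73 ± 0.21, adjusted p = 0.00411) and Mfap5 (0.81 ± 0.07, adjusted p = 0.0045) rose and 0 fell; the list's median was 0.46, between 0.10 and 0.64 on single arrays. Of 5 measured cartilage markers 1 fell (Col11a1, a collagen), of 5 neural and Schwann cell markers 2 fell (L1cam and Uchl1), of 5 epithelial markers 1 rose (Cdh1, E-cadherin), and of 5 endothelial and 6 macrophage and leukocyte markers 0 passed. Cdh1, L1cam and Uchl1 lost their calls without array 1A, 1B, 2A, 2B or 1C and with the replicate block (adjusted p = 0.101, 0.0679 and 0.109); Uchl1 and Mb also lost theirs with the arrays scaled to equal spread (adjusted p = 0.0563 and 0.0533). Of the 2 L1cam probes 1 passed (-0.70, adjusted p = 0.038) and the other was at -0.20 (adjusted p = 0.193). The medians of these lists, in the order given, were -0.25, -0.30, 0.07, -0.52 and -0.08. In bulk RNA fewer cells of a type and less RNA per cell cannot be told apart, and the part of other cell types in the members' ratios was not tested.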

How the data were processed

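The authors deposited log2 ratios of 8734 probes on 6 two-colour arrays. Scanner, background correction, normalization and ratio direction: not given in the sources used here. Array medians between -0.0012 and 0.0007 show that the deposited log2 values were centred. Per the labels' protocols, reverse-transcribed RNA was labelled with Cy3 or Cy5 and hybridised competitively. Signal intensities were not used, so precision rests on the spread between arrays and on their number.

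The platform annotation names 1 gene for 7540 probes, several for 14 and none for 1180; 7493 matched a GRCm38.p6 Entrez ID. Rows measured on 4 or more arrays, in each orientation, entered limma 3.58.1 (R 4.3.3; lmFit, eBayes, dye term, Benjamini-Hochberg): 8500 probe rows, or 6807 gene rows after averaging probes of a symbol. The fit was also run on simulated data with independent arrays of equal spread, which does not test it on arrays as unequal as these. Python 3.11.15, pandas 2.3.3, numpy 2.4.6 and matplotlib 3.10.9 did the rest. The members and gene lists were chosen with earlier results of these data known. Genes named beside the members passed the threshold, led a list without calls or lay among the 3 nearest patterns; marker genes and others were named for their role after their values were seen.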

Additional observations from a re-analysis of the deposited data

Results flagged for a closer look

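Pln probe 807869 stood on opposite sides of 0 in the 2 dye orientations, below it on 4 of 4 unswapped arrays and above it on 2 of 2 swapped arrays. Its dye term was -0.63, which did not pass limma's test after adjustment (adjusted p = 0.21). It passed without array 2C, at -1.01 (adjusted p = 0.00334), and was -0.25 (adjusted p = 0.378) without array 1C. Of the 8430 probes with 6 values, 10.0% show such opposite signs.

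Atp2a2 on array 1B, at 0.40, lay apart from the other 3 arrays of its orientation, which ran from 0.60 to 0.64. The rule for such a gap picks out about 5% of groups by chance, and 7 groups were examined; the fitted value without array 1B was 0.37.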

How the results depend on the processing

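Of 129 alternative values of the members' transgenic ratios (7 probes and the mean of Pln), 125 lay within 1 SD over arrays of the main value. That SD is the row's own, 0.82 for Pln probe 807869 and 0.78 for 807663, so signs also changed among the 125. Pln probe 807869 was at -0.38 on the unswapped arrays alone, -0.21 in set 2 alone and -0.12 without array 1C. Pln probe 807663 was at 0.11 in set 1 alone. Part of the 125 was fixed in advance. Members had a value on every array and none at the floor, so keeping complete rows or dropping floor values could not move them. Robust variances and the replicate block also left every fitted ratio at its main value. The count of 125 is therefore not read as a measure of stability. The other 4 came from turning the swapped arrays before the fit, which gave -0.13 for Pln probe 807862, -0.16 for Casq2 and, with the sign changed, -0.63 for Pln probe 807869 and 0.17 for Atp2b4. The same setting reversed Cacng1 (-0.25), Prkar2a (0.21), Thy1 (-0.10), Col11a1 (0.27), Tgfb2 (0.12), Col5a1 (0.08), Ccnd1 (0.14), Col3a1 (0.13) and Tm4sf1 (0.06), and left 1 gene row and 0 probe rows past limma's threshold, with 1546 probe rows at an unadjusted p under 0.05; turning the columns exchanges the transgenic and dye terms.

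For all rows, 484 gene rows and 604 probe rows passed. With a random replicate block for the set (correlation 0.295 and 0.30) it was 197 and 177, and on the 4 unswapped arrays it was 1071 and 1341. With 1 array left out the counts ran from 169 to 1689 and from 124 to 2165, the highest without array 2C. For dye they ran from 0 to 1260, again the highest without 2C, with 3 without 1C. For the set difference 1 probe row passed, 0 with any array left out (1178 to 2649 at an unadjusted p under 0.05) and 4 with arrays scaled to equal spread. Causes were not tested. The 5 called calcium genes kept their call in 51 of 70 alternatives. Floor values set to missing, rows with 6 values and robust variances moved no count of calls by over 1.5 times.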
